A study of Mus musculus with 5 samples.

Results

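The 6 genes described here are 5 mouse chemokines that draw neutrophils, Cxcl1, Cxcl2, Cxcl3, Cxcl5 and Ppbp, and their receptor Cxcr2. They were listed by name, and all 6 were among the 21617 genes counted in 41191 cells. The cells came from 5 droplet-based single-cell libraries of mice, 1 library for each group. The control library held macrophages elicited with thioglycollate, an irritant that brings macrophages into the peritoneal cavity, so that it was neither a granuloma nor the same kind of tissue. The other 4 libraries held cells of granulomas, nodules that form around material the body cannot clear, here a sponge or silk, each taken at 2 and at 4 weeks. Strain, age, sex and number of mice were not given in the sources used here. Where 4 values follow each other they belong to the granulomas, first sponge (2 weeks, then 4) and then silk (2 weeks, then 4).

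Chemokines of this group carry the residues Glu-Leu-Arg just before their paired cysteines and act on Cxcr2, a receptor coupled to Gi proteins on the surface of neutrophils. Binding makes the neutrophil crawl along the gradient, and the receptor is taken into the cell soon afterwards. Tissue cells and macrophages are known to make chemokines such as Cxcl1 and Cxcl2 when NF-kB, the main transcription factor of the inflammatory response, is switched on. The mRNAs of Cxcl1 and Cxcl2 are short-lived because AU-rich elements in the 3' end are bound by decay proteins such as Zfp36.

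In GENCODE M21, on the build GRCm38 (mm10), Cxcr2 lay on the forward strand of chromosome 1 from 74153989 to 74161246. The 5 chemokine genes lay together on the forward strand of chromosome 5, Cxcl5 from 90759360 to 90761624, Ppbp from 90768518 to 90770063, Cxcl3 from 90786103 to 90789600, Cxcl1 from 90891241 to 90893115 and Cxcl2 from 90903871 to 90905938. With Pf4 and Cxcl15 between them they made a cluster of 7 genes over 146.6 kb. The RefSeq table of promoters (GRCm38.p6) held windows of 300 bases for Cxcl1, Cxcl2, Cxcl3, Ppbp and Cxcr2, and none was used for Cxcl5. The consensus of NF-kB binding sites was searched on both strands and stood in 8.46% of the 32851 windows, among them those of Cxcl1, Cxcl2 and Cxcl3, where it matched the same 10 letters, GGGAATTTCC. These letters were read from the windows of these 3 genes, which are related copies. They occurred in 29 windows in all (0.0883%), those 3 included, so this share does not test their presence there. The 120 bases before the RefSeq start of these 3 genes are shown for this shared site, given in capitals, with those of Ppbp, which lacked it, for contrast.
Cxcl1, chr5:90891125-90891244, forward strand: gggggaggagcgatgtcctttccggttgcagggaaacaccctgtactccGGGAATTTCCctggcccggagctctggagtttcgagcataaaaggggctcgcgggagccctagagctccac
Cxcl2, chr5:90903779-90903898, forward strand: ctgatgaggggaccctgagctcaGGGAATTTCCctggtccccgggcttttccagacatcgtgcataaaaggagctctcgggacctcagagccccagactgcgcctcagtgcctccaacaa
Cxcl3, chr5:90785981-90786100, forward strand: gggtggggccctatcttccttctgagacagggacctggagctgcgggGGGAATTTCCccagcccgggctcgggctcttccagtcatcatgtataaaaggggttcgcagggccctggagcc
Ppbp, chr5:90768398-90768517, forward strand: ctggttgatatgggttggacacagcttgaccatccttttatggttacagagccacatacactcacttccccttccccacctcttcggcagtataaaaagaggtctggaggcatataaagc
Distances count from the RefSeq starts of the windows, 90891245 for Cxcl1, 90903899 for Cxcl2, 90786101 for Cxcl3 and 90768518 for Ppbp, of which only that of Ppbp is also the GENCODE start. The site began 71, 97 and 73 bases before the RefSeq start of Cxcl1, Cxcl2 and Cxcl3, and 67, 69 and 75 bases before the GENCODE start. The stretch shown for Cxcl2 thus ends 28 bases inside the GENCODE gene, and that for Cxcl1 ends 4 bases inside. The consensus also matched on the reverse strand there, 1 base further on. The TATA box letters TATAAA stood in 13.6% of windows, in Cxcl3 at 30 bases and in Ppbp at 30 and 8 bases before the start. The letters TGANTCA, a site of AP-1, stood in 7.81% of windows and in this group in Ppbp, 204 bases before the start. None of these letters occurred in the window of Cxcr2. These matches describe letters and were not measured as binding.

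The stretch after the stop codon separated the genes in another way. It held the decay motif ATTTA 11 times in Cxcl2 (737 bases), 7 times in Cxcl1 (595 bases), 5 times in Cxcl3 (648 bases) and 5 times in Cxcl5 (1114 bases). Among all annotated stretches within 20% of the same length, 0.0450%, 0.333%, 2.71% and 11.6% held as many. Ppbp had 1 ATTTA in 659 bases and Cxcr2 had 2 in 993 bases, numbers reached by 58.9% and 46.7% of stretches of like length. The chemokine genes are related copies, so reads could be mixed up between them. Over the last 500 bases of the transcripts, which 3' counting reads, the most alike pair was Cxcl2 and Cxcl3 with 61.0% identity and a longest shared run of 16 bases, while over the whole transcripts this pair shared a run of 110 bases.

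The libraries held 1873 to 12347 cells and 11207419 to 96066597 UMIs (unique molecular identifiers, each standing for 1 captured transcript), and the silk library at 4 weeks was by far the smallest. Classes and subclusters are the authors'. Mo-Mac stands for their class of monocytes, macrophages and dendritic cells, here without the cells set aside, such as subcluster C9. Their myocytes are named as they named them. Barcode sequences that occurred in another library belonged to 306 cells (0.743%). Without these cells 120 of 122 ratios of members stayed inside their counting interval, and none whose interval left out 0 changed sign. Levels are CPM, counts per 1000000 UMIs of the class, with an exact 95% Poisson interval. All intervals cover counting error only, because with 1 library a group no spread between animals could be measured and no test between groups was run. As droplets can also catch free RNA, a chemokine UMI in a cell is not proof that this cell made it.

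Cxcr2 marked the neutrophils. In the granulomas its level in neutrophils was 400 (375 to 426), 299 (250 to 356), 320 (291 to 351) and 530 (385 to 711) CPM. In Mo-Mac cells it was 0.830, 0.336, 0.422 and 0.789 CPM, and in fibroblasts at most 1.29 CPM. Neutrophils thus held 90.6%, 85.9%, 92.4% and 88.0% of all Cxcr2 UMIs, although they were 8.46%, 4.29%, 7.96% and 3.68% of the cells. The control library had 12 neutrophils, with 38 Cxcr2 UMIs and 2453 CPM (1736 to 3367), a level above those of the 4 granulomas that rests on too few cells to be compared.
The markers of the class followed its name. The summed level of 8 neutrophil markers was 78462 to 123230.0 CPM in neutrophils and 182 to 374 CPM in granuloma Mo-Mac cells.

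Among the 3 neutrophil subclusters, Cxcr2 was highest in N1, at 653 (592 to 719), 371, 513 and 629 CPM. The second was N2 in sponge, with 389 and 203 CPM, and N3 in silk at 2 weeks, with 77.8 CPM against 54.7 CPM in N2, 2 values whose intervals overlapped. The gap between N1 and N2 was thus widest in silk at 2 weeks. N1 also had the most Retnlg, a secreted protein of mature neutrophils, with 8994, 4006 and 3032 CPM against 1374, 850 and 463 CPM in N2. The authors' clusters were drawn from the same cells and genes, so these orders are descriptions. N3 held macrophage RNA, with 9545 and 11699.5 CPM of Lyz2 and 977 and 424 CPM of C1qa at 2 weeks in sponge and silk, and its median cell had 5831 and 4863 UMIs against 1763 and 1221 in N1. Whether N3 cells are doublets was not tested.

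The share of neutrophils with a Cxcr2 UMI depended on depth, so each cell was thinned to 500 UMIs, which left out none, 5, 15 and 4 of the neutrophils. It was then 17.5%, 15.1%, 15.6% and 27.7% (17.3 to 40.2), and 44.8%, 27.9%, 31.1% and 42.0% without thinning. The median neutrophil had 1893, 1142, 1320 and 1083 UMIs. NK and T cells were taken as a reference for free RNA, a choice that was not tested. No thinned NK or T cell of the 4 granulomas held a Cxcr2 UMI, which allows 0.649% to 2.11%, at a median depth of 3110, 2526, 2553 and 2369 UMIs. Endothelial cells were also at 0 after thinning.

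**Figure D1:**
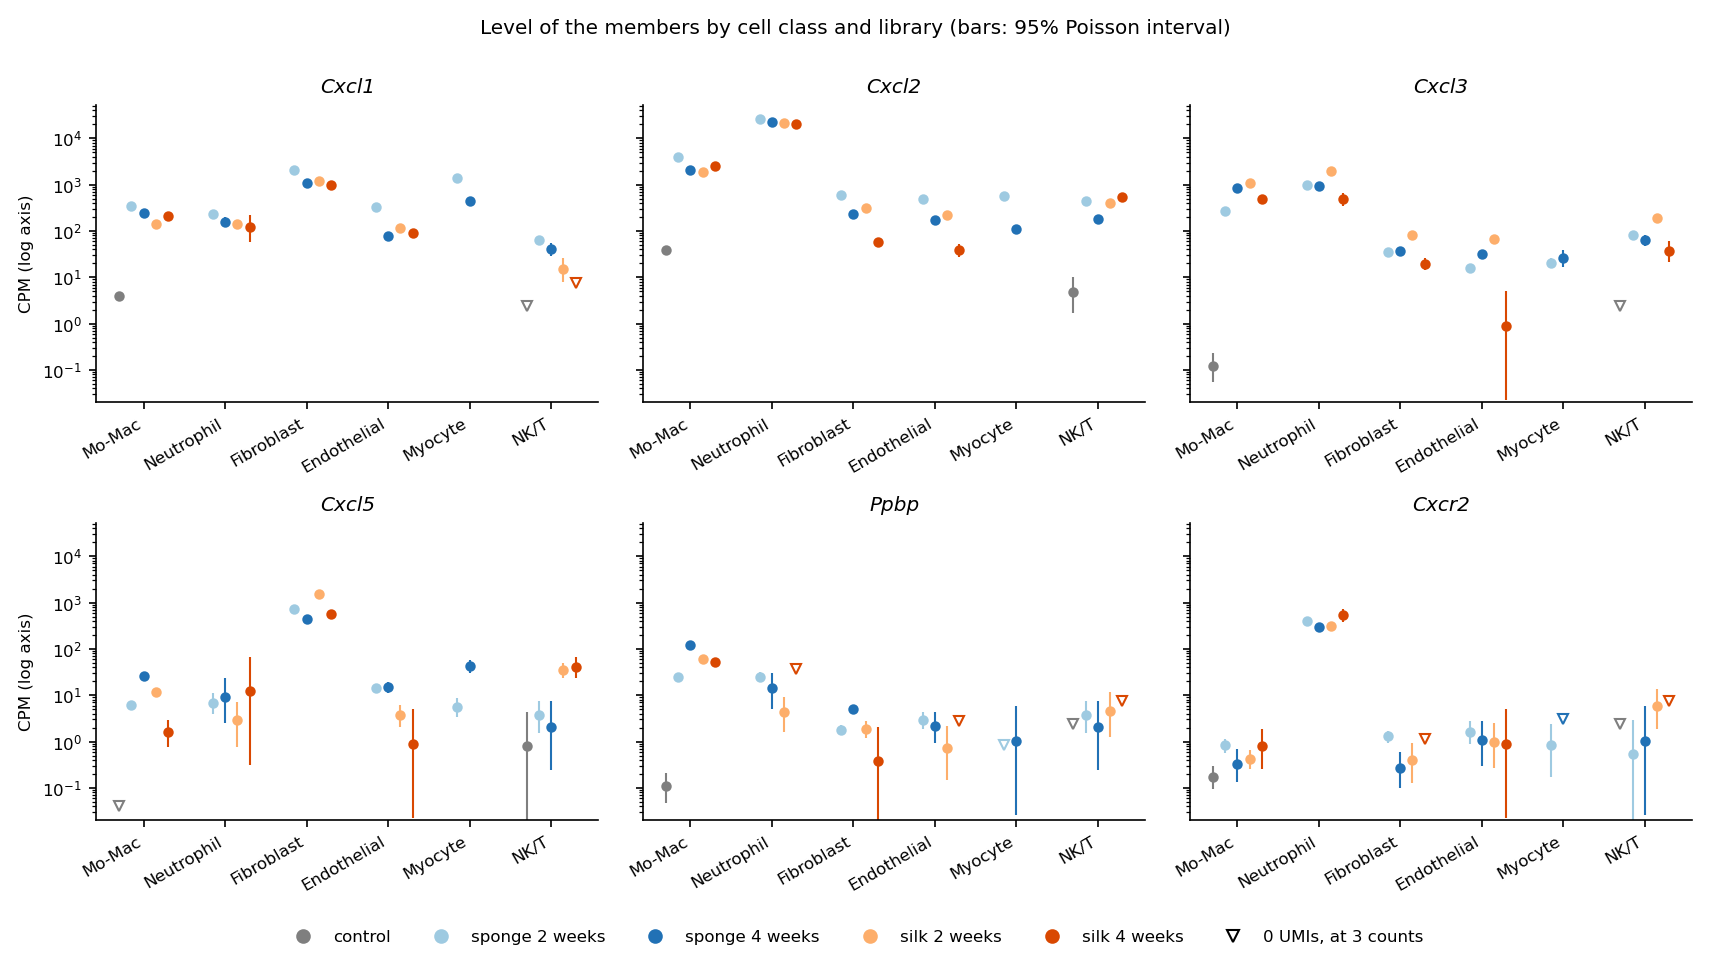
Level of each gene (CPM, log axis) in 6 cell classes with at least 50 cells in the library. Points are single libraries with exact 95% Poisson intervals and open triangles mark 0 UMIs, drawn at 3 counts. Cxcr2 stands at 299 to 530 CPM in granuloma neutrophils and below 6 CPM in the other classes where it had a UMI. Cxcl5 is highest in fibroblasts, and the grey control points of Mo-Mac cells lie below the granulomas for every gene.

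Cxcl2, also called MIP-2, was highest in the cells that carry its receptor. Its level in neutrophils was 26567 (26360 to 26775), 22589, 21134 and 20149 CPM. Mo-Mac cells followed with 4043, 2108, 1887 and 2508 CPM, against 38.7 CPM in the control Mo-Mac cells. Fibroblasts had 589, 232, 320 and 59.3 CPM and endothelial cells 501, 172, 221 and 38.0 CPM. The order neutrophils over Mo-Mac cells over both stromal classes held in each of the 4 granulomas.

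Because Mo-Mac cells were the most numerous, they held most Cxcl2 UMIs, 65.0%, 72.6%, 69.5% and 88.0%, and neutrophils held 24.1%, 16.0%, 25.5% and 9.26%. At 500 UMIs a cell, 93.5%, 91.4%, 94.99% and 83.1% of neutrophils had a Cxcl2 UMI, and 54.4%, 44.3%, 41.7% and 43.2% of Mo-Mac cells, against 1.63% in the control. Without thinning the Mo-Mac shares were 80.2%, 73.6%, 73.4% and 67.0%. NK and T cells had thinned shares of 8.66%, 4.89%, 5.60% and 12.0%, which shows how much Cxcl2 appeared in cells not known as its source. In neutrophils N2 was the highest of the subclusters with 42831, 28816 and 41096 CPM, before N1 with 16235, 21580.5 and 21956 CPM, and silk at 4 weeks had N1 alone with 50 cells or more, at 17879 CPM. So the subcluster with the most Cxcl2 was not the one with the most Cxcr2. Within Mo-Mac cells the highest subcluster was C4 in sponge at 2 weeks (6049.5 CPM), and C6 in both 4-week libraries (3357 and 3849.9 CPM). In silk at 2 weeks the intervals of C4 (2679.9 CPM) and C6 (2648 CPM) overlapped.

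**Figure D2:**
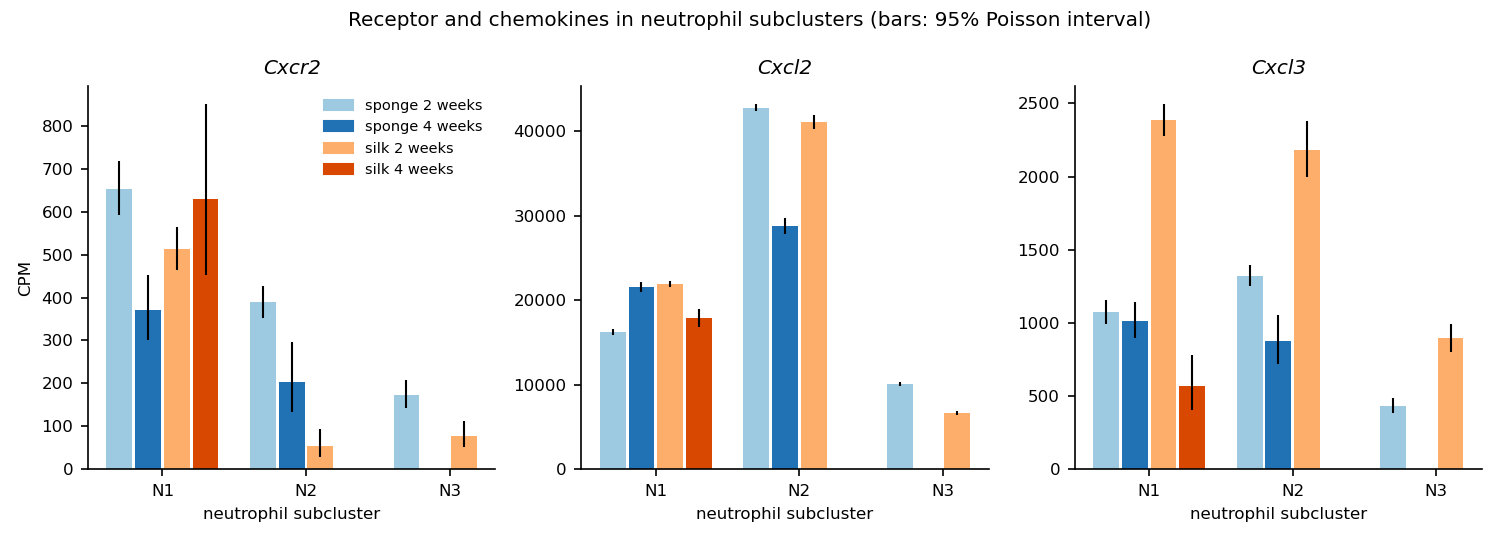
Level of Cxcr2, Cxcl2 and Cxcl3 (CPM, linear axes from 0) in neutrophil subclusters with at least 50 cells, with exact 95% Poisson intervals. Cxcr2 is highest in N1 (371 to 653 CPM), Cxcl2 in N2 where N2 is shown (28816 to 42831 CPM), and Cxcl3 is highest in silk at 2 weeks within each subcluster.

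Receptor and ligand occurred in the same neutrophils. At 500 UMIs a cell, Cxcl2 was found in 93.4% (88.8 to 96.6) of the 183 neutrophils with a Cxcr2 UMI in sponge at 2 weeks and in 93.5% of those without one. The pairs of values were 89.8% and 91.7% in sponge at 4 weeks, 96.0% and 94.8% in silk at 2 weeks and 83.3% and 83.0% in silk at 4 weeks, with overlapping intervals in each library. Cells with both made up 16.4%, 13.5%, 15.0% and 23.1% of neutrophils. Cxcl3 gave 21.9% against 22.1%, 10.2% against 17.4%, 26.4% against 27.5% and 0 of 18 cells against 14.9%, also with overlapping intervals. With Cxcl2 in nearly every neutrophil, its share left little room for a difference, and the 4-week libraries had few neutrophils in which to see one for Cxcl3.

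Cxcl1, known as KC, came mainly from fibroblasts. Its level there was 2084 (2069 to 2099), 1091, 1230.2 and 991 CPM. Mo-Mac cells had 354, 245, 141 and 206 CPM, and 4.01 CPM in the control. Neutrophils had 237, 159, 141 and 120 CPM, and endothelial cells 327, 78.8, 114 and 90.5 CPM. The myocytes of the sponge libraries, the only ones with 50 cells or more, had 1378 and 442 CPM, second to fibroblasts.

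Fibroblasts held 75.9%, 79.8%, 68.9% and 63.0% of Cxcl1 UMIs while they were 17.2%, 19.4%, 7.80% and 11.3% of cells. The fibroblast had far more UMIs than other cells, with a median of 15207, 12055, 13979 and 10133, and when the classes were weighted by cells rather than by UMIs the share was 54.5%, 52.8%, 39.5% and 47.4%. A Cxcl1 UMI was found in 48.8%, 32.6%, 32.8% and 31.2% of fibroblasts at 500 UMIs a cell and in 86.8%, 82.0%, 76.8% and 65.9% without thinning, and in 3.03%, 1.30%, 0.373% and 0% (upper limit 2.11%) of thinned NK and T cells. Cxcl1 was thus spread over many fibroblasts, with 35.6% to 58.9% of its UMIs in the tenth of them with the most. F1 was the highest subcluster in both sponge libraries (2409 and 1240 CPM, before F3 with 1725 and 1052 CPM), F3 in silk at 2 weeks (1463 CPM, before F2 with 1253 CPM) and F2 in silk at 4 weeks (1015 CPM, with F1 at 987 CPM inside its interval).

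Cxcl5, the chemokine otherwise known as LIX, was almost confined to fibroblasts, which had 727 (718 to 736), 436, 1528 and 571 CPM and held 97.9%, 92.8%, 96.4% and 98.1% of its UMIs. Mo-Mac cells had 6.23, 26.0, 12.0 and 1.58 CPM, and neutrophils at most 12.0 CPM from 1 to 16 UMIs. NK and T cells had 3.73, 2.05, 34.6 and 40.3 CPM (7, 2, 30 and 16 UMIs), in silk above Mo-Mac cells. The sponge myocytes had 5.58 and 42.3 CPM (20 and 41 UMIs). Inside the fibroblasts F2 was the highest in each granuloma, with 2359, 836, 1943 and 1049 CPM, and F1, the leading source of Cxcl1 in sponge, had 250, 118, 300 and 47.8 CPM. The second was F3 in the first 3 libraries, with 959, 662 and 1173 CPM.
So Cxcl1 and Cxcl5 had different leading fibroblast subclusters in sponge and in silk at 2 weeks. At 500 UMIs a cell, 15.5%, 9.60%, 32.7% and 7.32% of fibroblasts had a Cxcl5 UMI, with 40.5%, 32.4%, 66.2% and 25.6% unthinned, and 76.3%, 84.9%, 57.7% and 88.1% of its UMIs lay in the tenth of fibroblasts with the most. Among fibroblasts with a Cxcl5 UMI 48.3%, 34.3%, 37.5% and 33.3% also had Cxcl1, against 48.8%, 32.4%, 30.5% and 31.1% of the others.

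Cxcl3 was shared by neutrophils and macrophages. Neutrophils had 1007 (967 to 1048), 953, 1954 and 494 CPM. Mo-Mac cells had 274, 862, 1076 and 489 CPM, against 0.121 CPM from 9 UMIs in the control. At 2 weeks the 2 classes differed beyond counting error in both materials, and at 4 weeks their intervals overlapped in both. Fibroblasts had 34.9, 36.9, 82.4 and 19.7 CPM. Of all Cxcl3 UMIs, 73.6%, 89.1%, 91.0% and 96.1% lay in Mo-Mac cells. Thinned cells with a UMI made up 8.25%, 19.8%, 22.5% and 10.3% of Mo-Mac cells, 22.0%, 16.3%, 27.3% and 10.8% of neutrophils and 1.52%, 0.977%, 1.12% and 1.41% of NK and T cells.

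Within Mo-Mac cells Cxcl3 belonged to C6 and C7. C7 had 544, 1018, 1215 and 633 CPM and C6 had 605, 1069, 774 and 179 CPM. C4, the subcluster that led for Cxcl2 in sponge at 2 weeks, had 196, 229 and 226 CPM, and C5 had 26.4, 89.6 and 41.8 CPM. The weight of the subclusters differed between libraries, with 1122, 2078, 4461 and 496 cells of C7 and 2542, 71 and 139 cells of C4 in the first 3. Mo-Mac cells with a Cxcl2 UMI more often had Cxcl3, 10.9% against 5.15%, 28.8% against 12.6%, 32.2% against 15.6% and 13.9% against 7.48%. The same split inside C7 alone gave 23.8% against 11.3%, 35.6% against 17.5%, 37.6% against 19.7% and 17.2% against 13.9%, so that it was also present among cells of 1 subcluster, with overlapping intervals in silk at 4 weeks.

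Ppbp, whose product is cut to the neutrophil attractant NAP-2 and which platelets store, was found in few Mo-Mac cells. Its level in this class was 24.96, 119, 61.2 and 52.0 CPM and 0.108 CPM from 8 UMIs in the control. Mo-Mac cells held 87.2%, 88.1%, 98.6% and 99.7% of its UMIs, and subcluster C9, which was set aside as a mixture, held a further 7.38% in sponge at 4 weeks. A UMI was present in 3.56%, 8.56%, 5.81% and 4.50% of Mo-Mac cells, and in 0.914%, 3.12%, 1.90% and 1.97% after thinning, but single cells had up to 108. C7 had 53.7, 153, 69.9 and 63.4 CPM. C6 was second in silk (37.9 and 49.2 CPM, the latter with an interval overlapping that of C7), N3 was first in sponge at 2 weeks (83.1 CPM) and C9 in sponge at 4 weeks (155 CPM, inside the interval of C7).

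Because platelets store Ppbp, their genes Itga2b, Gp9, Gp1bb, Gp5, Clec1b and Treml1 were counted in the same cells. Of the Mo-Mac cells with Ppbp, 5 of 253, 11 of 394, 4 of 427 and 1 of 47 had any UMI of these genes (1.98%, 2.79%, 0.937% and 2.13%), against 0.773%, 1.42%, 1.65% and 1.80% of the other Mo-Mac cells, which had fewer UMIs. Gp9 was at 0 in Mo-Mac cells of all 5 libraries. Pf4, a neighbour in the gene cluster and itself a platelet gene, was found in 96.0%, 92.6%, 90.6% and 93.6% of cells with Ppbp and in 61.3%, 61.2%, 53.4% and 50.2% of those without. Cxcl3 was more frequent too in thinned Mo-Mac cells with Ppbp, 23.1% (13.5 to 35.2) against 8.12%, 48.2% against 18.8%, 44.9% against 22.1% and 36.8% against 9.74%, with overlapping intervals in no library. Inside C7 the pairs were 32.1% against 16.3%, 51.6% against 24.5%, 48.0% against 26.9% and 30.8% against 15.1%, with overlapping intervals in sponge at 2 weeks and in silk at 4 weeks, where 28 and 13 cells held Ppbp.

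**Figure D3:**
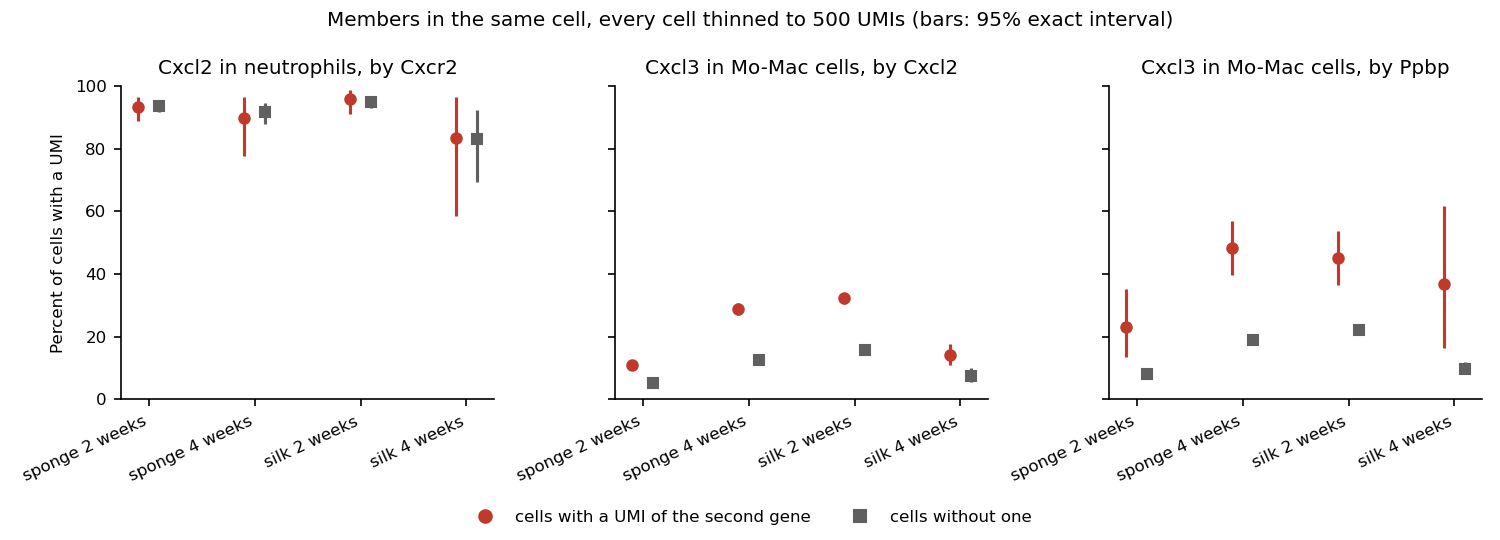
Percent of cells with a UMI of the first gene among cells with (red circles) and without (grey squares) a UMI of the second, every cell thinned to 500 UMIs, with exact 95% intervals. Cxcl2 is equally frequent in neutrophils with and without Cxcr2 within the intervals, whereas Cxcl3 is more frequent in Mo-Mac cells that hold Cxcl2 or Ppbp in each of the 4 granulomas.

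**Figure D4:**
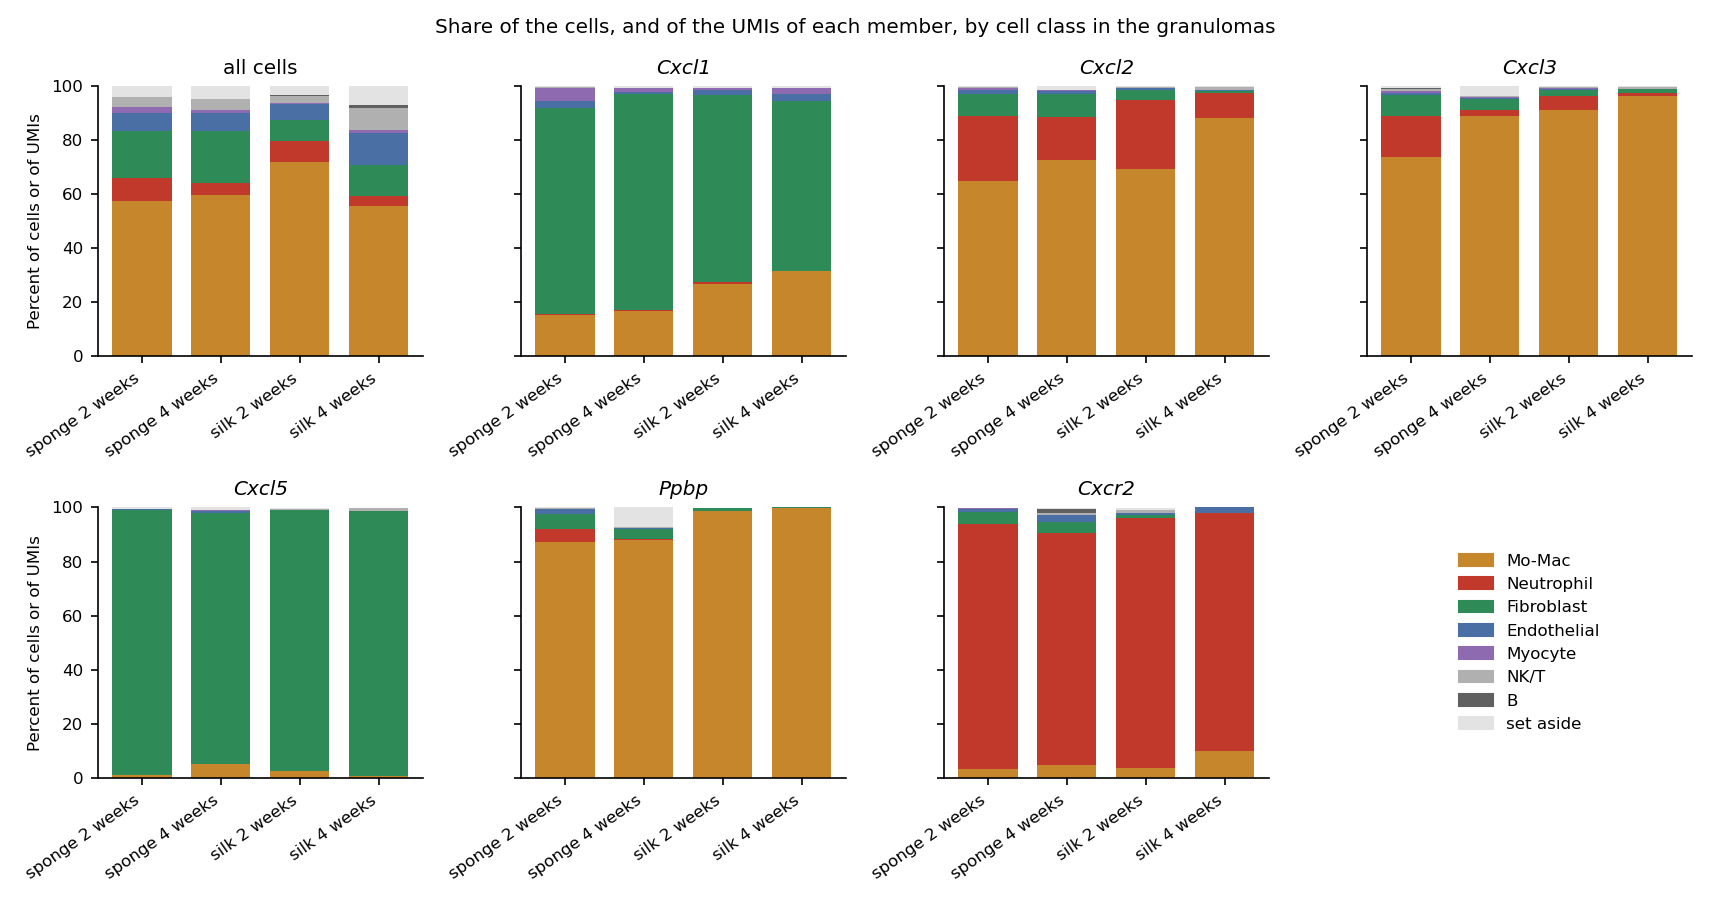
Share of all cells (first panel) and of the UMIs of each gene by cell class in the 4 granulomas, in percent, stacked to 100. Fibroblasts hold 63.0% to 79.8% of Cxcl1 and 92.8% to 98.1% of Cxcl5 UMIs, Mo-Mac cells most of Cxcl2, Cxcl3 and Ppbp, and neutrophils 85.9% to 92.4% of Cxcr2.

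The first comparison set granuloma Mo-Mac cells against the elicited macrophages of the control, which all 4 comparisons share. Of the genes with at least 20 UMIs over both libraries, at least 2-fold higher were 6 of 6, 5 of 6, 6 of 6 and 4 of 4 of the group, where 15.5%, 15.1%, 13.6% and 13.0% of all genes were. None of the group was 2-fold lower, where 12.6%, 11.7%, 12.8% and 11.3% of all genes were. Cxcl1 and Cxcl2 passed the filter on their control UMIs alone, 298 and 2880. Cxcl3, Cxcl5, Ppbp and Cxcr2 had 9, 0, 8 and 13 control UMIs and were counted only with those of the granuloma. Their calls were thus largely set by the filter. The log2 ratio of Cxcl2 was 6.71 (6.65 to 6.76), 5.77, 5.61 and 6.02, and that of Cxcl1 6.46 (6.30 to 6.63), 5.93, 5.13 and 5.68. Cxcl3 reached 11.07 (10.22 to 12.27), 12.72, 13.04 and 11.90 and Ppbp 7.77, 10.03, 9.06 and 8.83, from 9 and 8 control UMIs. Cxcl5 had no UMI in control Mo-Mac cells and was at least 154-fold, 645-fold, 298-fold and 39.1-fold higher against a floor of 3 counts in that library, the last from 10 UMIs. The summed level of 6 fibroblast markers in the same Mo-Mac cells was 432, 578, 112 and 68.4 CPM by granuloma, against 0.659 CPM for control cells and 58447 to 85474 CPM for fibroblasts, and the part of fibroblast RNA in the Cxcl5 values was not tested.
The receptor gave 2.21 (1.29 to 3.29) and 1.25 (0.16 to 2.42) at 2 weeks in sponge and silk, from 35, 18 and 13 UMIs, and its level stayed below 1 CPM on both sides. The 4 granulomas thus had all 5 chemokines at higher levels than the control macrophages.

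Genes of the same pathway are given for the same comparison, with the shares over all genes as given above. Of 17 genes of NF-kB feedback and of chemokine mRNA decay, 14, 12, 11 and 12 were at least 2-fold higher and none lower, with medians of 1.91, 1.59, 1.32 and 1.60 against -0.11, -0.02, -0.05 and -0.04 over all genes. They included the decay factor Zfp36 (286 CPM in control cells, then 1116, 967, 695 and 1065 CPM) and the NF-kB inhibitor Nfkbia (130 CPM, then 797, 496, 373 and 535 CPM). Zfp36l2 of the same list was not 2-fold higher (436 CPM, then 505, 491, 585 and 663 CPM). Among inducers of these chemokines and their receptors, 9 of 14, 7 of 14, 7 of 13 and 4 of 11 were higher and 1, 2, 2 and 0 lower (Il6ra in all but silk at 4 weeks, and Il6st in sponge at 4 weeks and silk at 2 weeks), the higher ones led by the cytokine Il1b, at 3.11 CPM in control cells and at 1824, 581, 882 and 600.1 CPM. Some of the higher inducers and receptors, in all but silk at 4 weeks, had at most 0.0807 CPM in control cells. They were counted only with the UMIs of the granuloma, so their calls were largely set by the filter. None of 12 genes of signalling and desensitisation below Cxcr2 was 2-fold higher in any granuloma, and 1, 1, 2 and 2 were lower. In the same comparison 12, 12, 8 and 14 of 20 genes that respond to tissue dissociation were higher and 1, 1, 2 and 1 lower. The higher ones included Junb, at 250.1 CPM in control cells and at 1571, 2268, 1829 and 1995 CPM. Hspa8, the highest of the 20 in control cells, was not 2-fold higher, at 1677 CPM and then 2479, 1835, 2012 and 1966 CPM. Zfp36 was counted in this list and in that of NF-kB feedback and decay. The part of dissociation in the chemokine levels was not tested, and material, tissue and handling cannot be told apart in this comparison.

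**Figure D5:**
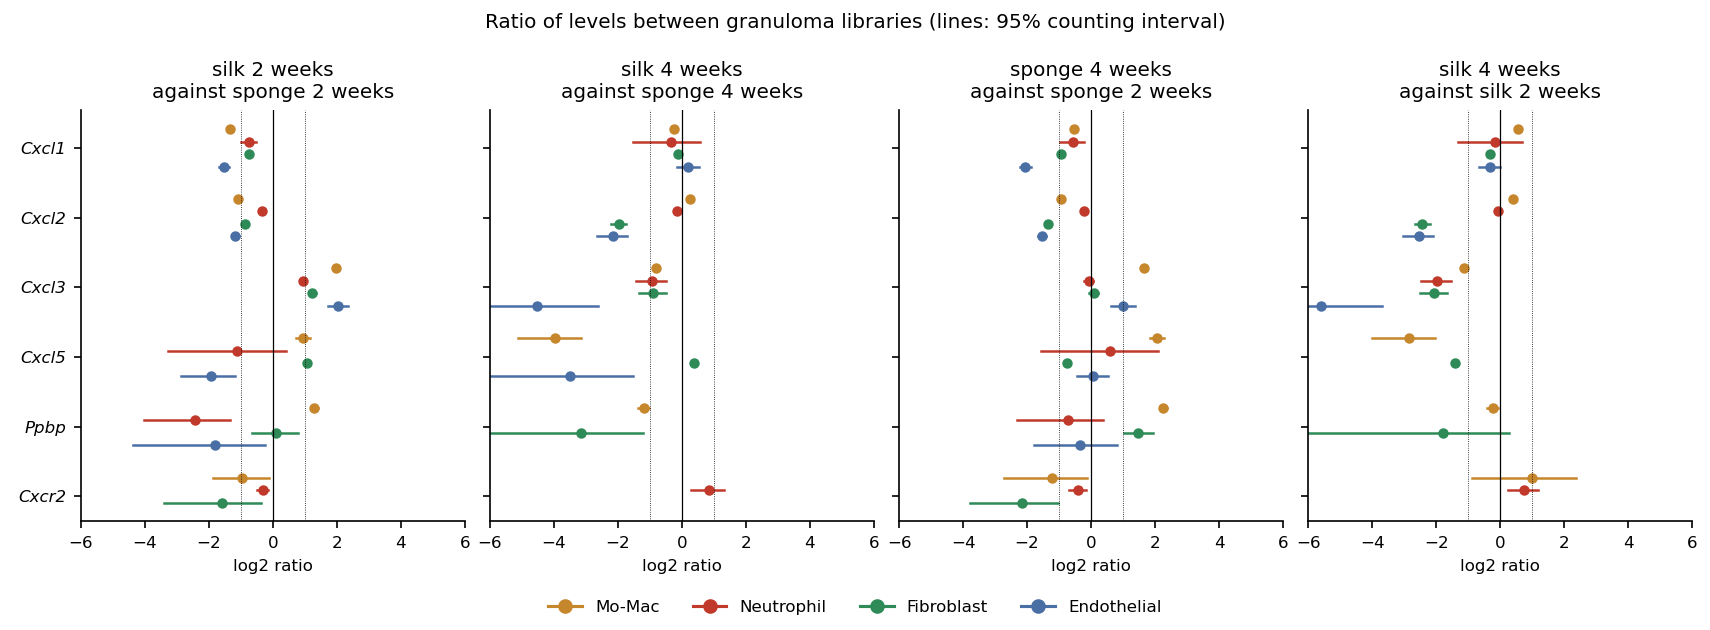
Log2 ratio of the level between granuloma libraries for each gene in 4 cell classes, with 95% counting intervals, which are clipped at -6 and 6. Dotted lines mark 2-fold. Cxcl3 lies to the right in silk against sponge at 2 weeks (0.96 to 2.04) and to the left at 4 weeks (-4.55 to -0.82) in all 4 classes.

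Silk was then set against sponge at the same time. In Mo-Mac cells at 2 weeks Cxcl3 and Ppbp were at least 2-fold higher in silk and Cxcl1 and Cxcl2 at least 2-fold lower, 2 and 2 of 6, where 3.58% and 8.47% of all genes were. At 4 weeks 0 of 5 were higher and 2 of 5 lower (Cxcl5 and Ppbp, the latter with -0.64 after thinning to 500 UMIs), against 2.03% and 4.09%. Cxcl3 was higher in silk at 2 weeks by 1.97 on the log2 scale and lower at 4 weeks, with -0.82 (-0.87 to -0.76), and Ppbp gave 1.29 and -1.19. Cxcl2 went the other way, with -1.10 (-1.11 to -1.09) and 0.25 (0.22 to 0.28). Cxcl1 was -1.33 and -0.25. At 4 weeks the fibroblast markers in these Mo-Mac cells were also lower in silk, at 68.4 CPM against 578 CPM in sponge. Their part in the value of Cxcl5 was not tested.

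The shift of Cxcl3 was seen inside some subclusters as well as between them. Of 6 Mo-Mac subclusters at 2 weeks, C6, C7 and C8 were higher in silk beyond the counting interval, and C3, C4 and C5 had values above 0 with intervals that spanned 0. At 4 weeks C6 and C7 of 3 were lower in silk, and C3 gave 0.77 (-0.68 to 2.12) from 9 and 12 UMIs. Within C7 silk against sponge gave 1.16 at 2 weeks and -0.69 at 4 weeks, and within C6 0.36 (0.28 to 0.43) and -2.57. The values within C7 were smaller than over the class, which in silk at 2 weeks had more cells of C7. Cxcl2 within C7 was -0.04 at 2 weeks and 0.33 at 4 weeks, so that its lower class level in silk at 2 weeks was not a feature of C7, while C6 gave -1.08. Ppbp within C7 was 0.38 and -1.27.

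Neutrophils, fibroblasts and endothelial cells gave the same signs for Cxcl3. The levels in fibroblasts and in endothelial cells (15.9, 31.6, 65.7 and 0.905 CPM) lay below those in NK and T cells (81.6, 62.6, 190 and 37.8 CPM) in each granuloma. In neutrophils silk against sponge was 0.96 (0.88 to 1.04) at 2 weeks and -0.93 (-1.45 to -0.48) at 4 weeks, and 0.93 and -0.93 without N3. Fibroblasts gave 1.24 and -0.90, but without F4, which held macrophage markers such as Lyz2 at 2951 to 4798 CPM against 33.5 to 359 CPM in F1 to F3, the values were 0.11 and -0.29. Endothelial cells gave 2.04 and -4.55 (-10.44 to -2.62), the second from 1 UMI in silk. Thinning to 500 UMIs turned the value of NK and T cells at 2 weeks from 1.22 to -0.15.

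In neutrophils, at least 2-fold higher in silk were 0 of 6 at 2 weeks and 0 of 4 at 4 weeks, and 2 of 6 (Cxcl5 and Ppbp) and 0 of 4 were lower. The shares over all genes were 6.68% and 7.40% higher and 4.60% and 11.8% lower. Cxcl5 rested on 4 and 16 UMIs, with an interval that spanned 0. Ppbp rested on 6 and 59 UMIs, of which 5 and 55 lay in N3, the subcluster with macrophage RNA, and its value of -2.43 became -0.84 without N3. Cxcl2 gave -0.33 (-0.35 to -0.31) and -0.16, and Cxcr2 -0.32 (-0.49 to -0.16) and 0.84 (0.30 to 1.33). The second rests on 44 and 128 UMIs, from 69 and 330 cells. By subcluster Cxcr2 was -0.35 in N1, -2.78 in N2 and -1.13 in N3 at 2 weeks, and 0.77 (0.21 to 1.30) in N1 at 4 weeks. The class value at 2 weeks is small beside that of N2, in a silk library where 598 of 814 neutrophils were N1, against 364 of 1044 in sponge.

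In fibroblasts 2 of 6 were at least 2-fold higher in silk at 2 weeks (Cxcl3 and Cxcl5) and 1 of 6 lower (Cxcr2, from 5 and 46 UMIs), where 5.26% and 5.14% of all genes were. Of these, Cxcl3 and Cxcr2 lost the call without F4, with 0.11 and 0.31, and Cxcr2 was 1.42 after thinning to 1000 UMIs. At 4 weeks 0 of 5 were higher and 2 of 5 lower (Cxcl2 and Ppbp), against 5.16% and 6.48%. Ppbp rested on 1 and 111 UMIs and was -0.65 without F4, and Cxcl2 was -0.64 after thinning to 500 UMIs and -0.29 as a mean over cells. Cxcl5 was higher in silk by 1.07 (1.05 to 1.10) at 2 weeks, and by 0.91 with TMM factors. This class value moved with the subclusters, since F2, the highest in Cxcl5, made up 457 of 798 fibroblasts in silk and 314 of 2127 in sponge. Within F2 Cxcl5 was lower in silk, -0.28 (-0.31 to -0.25), and it was 0.26 in F1, 0.29 in F3 and 1.09 in F4. At 4 weeks it was 0.39 (0.31 to 0.47), but -0.10 without the 5% of cells with the most UMIs and -0.74 after thinning to 500 UMIs. Cxcl1 was lower in silk, with -0.76 and -0.14, and Cxcl2 with -0.88 and -1.96.

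From 2 to 4 weeks the ligands of Mo-Mac cells moved apart. In sponge 3 of 6 were at least 2-fold higher at 4 weeks, Cxcl3 with 1.65 (1.62 to 1.69), Cxcl5 with 2.06 and Ppbp with 2.26, and 1 of 6 lower, Cxcr2 from 7 and 35 UMIs. All genes gave 5.42% and 6.16%. Cxcl2 was -0.94 and Cxcl1 -0.53. In silk 1 of 6 was higher, Cxcr2 from 5 and 18 UMIs with an interval that spanned 0, and 2 of 6 lower, Cxcl3 with -1.14 (-1.19 to -1.09) and Cxcl5 with -2.86, against 5.33% and 3.51% of all genes. There Cxcl2 was 0.41 and Cxcl1 0.55, both higher at 4 weeks. The summed fibroblast markers in Mo-Mac cells went from 432 to 578 CPM in sponge and from 112 to 68.4 CPM in silk. Their part in the values of Cxcl5 was not tested. Within C7 the 5 chemokines in the order Cxcl1, Cxcl2, Cxcl3, Cxcl5 and Ppbp gave 0.072, 0.086, 0.91, 2.20 and 1.51 in sponge and 0.68, 0.46, -0.94, -2.79 and -0.14 in silk, so that the lower class level of Cxcl2 in sponge at 4 weeks was not seen in C7. Each of these 4 comparisons shares a library with 2 of the others, so they are not independent.

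Fibroblasts had less Cxcl1 at 4 weeks in sponge, -0.93 (-0.95 to -0.91), and in silk, -0.31, and less Cxcl2, -1.35 and -2.43, and Cxcl5, -0.74 and -1.42. At least 2-fold lower were 2 of 6 in sponge (Cxcl2 and Cxcr2) and 4 of 5 in silk (Cxcl2, Cxcl3, Cxcl5 and Ppbp), where 4.42% and 10.1% of all genes were, and 1 of 6 (Ppbp) and 0 of 5 were higher, where 3.44% and 6.94% were. Without F4 the sponge values of Cxcr2 (from 6 and 46 UMIs) and Ppbp were -0.083 and 0.33, and the silk value of Cxcl3 was -0.78. Cxcr2 in sponge was 0.54 after thinning to 1000 UMIs, Ppbp in silk rested on 1 and 24 UMIs with an interval that spanned 0, and Cxcl2 in silk was -0.91 as a mean over cells. In neutrophils at 4 weeks 0 of 6 and 0 of 4 were higher (10.5% and 10.1% of all genes) and 0 of 6 and 1 of 4 lower (13.7% and 21.7%), the latter Cxcl3 in silk with -1.97. Neutrophil Cxcr2 was -0.41 in sponge and 0.74 in silk. By subcluster it was -0.81 in N1 and -0.91 in N2 in sponge, where N1 made up 364 of 1044 neutrophils at 2 weeks and 229 of 330 at 4 weeks. In silk N1 alone had 50 cells at both times, and gave 0.31 (-0.20 to 0.76), an interval that spanned 0. The other receptors of neutrophils for attractants, such as Ccr1 at 980, 1760, 1545 and 1397 CPM and C5ar1 at 558, 876, 760 and 988 CPM, were at least 2-fold higher at 4 weeks for 1 of 7 genes in sponge and 0 of 7 in silk. Of 20 dissociation genes 9 and 5 were higher in neutrophils at 4 weeks, and their part was not tested.

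Endothelial cells line blood and lymph vessels, and the class differed in makeup between libraries. The summed level of 5 lymphatic markers in it was 442, 4099, 3408 and 7924 CPM, beside 4862, 4735, 5082 and 5184 CPM for 6 general endothelial markers, and that of 6 fibroblast markers was 2416, 810.1, 388 and 65.2 CPM. The fibroblast markers were thus highest where endothelial Cxcl1 and Cxcl2 were highest, in sponge at 2 weeks. The summed level of 9 monocyte and macrophage markers was 1100, 989, 1542 and 150 CPM, and endothelial Cxcl3 was at 15.9, 31.6, 65.7 and 0.905 CPM. Both were highest in silk at 2 weeks and lowest in silk at 4 weeks, while in sponge their orders differed. The part of lymphatic makeup, fibroblast RNA or macrophage RNA in the values was not tested. The class had 1 of 5 members at least 2-fold higher in silk at 2 weeks (Cxcl3, with 0.84 after thinning to 1000 UMIs; 6.54% of all genes) and 4 of 5 lower (3.63%), of which Ppbp rested on 3 and 23 UMIs and was 1.23 after thinning to 500 UMIs. At 4 weeks 0 of 4 were higher (2.97%) and 3 of 4 lower (5.52%), of which Cxcl5 rested on 1 and 55 UMIs and was 1.17 after thinning to 500 UMIs. From 2 to 4 weeks 0 of 5 were higher in sponge (7.61%) and 2 of 5 lower (4.53%), and 0 of 3 were higher in silk (3.78%) and 2 of 3 lower (6.77%). Over this time endothelial Cxcl1 gave -2.05 in sponge and -0.32 in silk, and Cxcl2 gave -1.54 and -2.52. In the sponge myocytes 1 of 4 members was at least 2-fold higher at 4 weeks (Cxcl5 with 2.90, from 41 and 20 UMIs, which turned to -1.27 after thinning to 500 UMIs; 5.75% of all genes) and 2 of 4 were lower (4.73%), Cxcl1 with -1.64 and Cxcl2 with -2.32.

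NK and T cells, taken above as a reference for free RNA, were compared in the same way. Their chemokine UMIs were concentrated in few cells. In sponge at 2 weeks 89.2% of Cxcl2 UMIs lay in the tenth of cells with the most, and 1 cell held 79 of 153 Cxcl3 UMIs. In silk at 4 weeks that share for Cxcl2 was 95.4%. Whether these UMIs were free RNA or came from doublets was not tested. Against the control 3 of 3, 3 of 3, 3 of 3 and 1 of 1 members were at least 2-fold higher, where 8.08%, 11.0%, 9.79% and 10.1% of all genes were, and none was lower (13.6%, 9.94%, 9.61% and 12.6%). In control cells Cxcl1, Cxcl2, Cxcl3 and Cxcl5 had 0, 6, 0 and 1 UMIs and were counted only with those of the granuloma. Their calls against the control were thus largely set by the filter. Cxcl2 stood there at 4.75 CPM in control cells and at 441, 179, 404 and 551 CPM. Silk against sponge gave 2 of 4 higher (6.85%) and 1 of 4 lower (3.15%) at 2 weeks and 1 of 3 higher (2.37%) and 1 of 3 lower (5.85%) at 4 weeks. From 2 to 4 weeks 0 of 3 were higher in sponge (9.76%) and 1 of 3 lower (4.03%), and in silk 0 of 3 were higher (3.36%) and 1 of 3 lower (5.98%). So chemokine UMIs in cells not known as their source also differed between the libraries, and the part of free RNA in the values of the other classes was not tested.

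The genes most like each member were found by Pearson's r of log2(CPM + 10) over 64 sums of a subcluster or class in a library. These points share libraries and related cells, so r is a description without a p-value. Nearest to Cxcr2 were Stfa2l1 (0.98), Retnlg (0.98), Mirt2 (0.97), Cstdc4 (0.97) and Rdh12 (0.97). Cxcl2 was most like Il1rn (0.90), which encodes the antagonist of the interleukin 1 receptor, Clec4e (0.90), Rabgef1 (0.89), Ccrl2 (0.89) and Nlrp3 (0.89). Cxcl3 was most like Olr1 (0.88), Clec4n (0.85), Cxcl2 (0.84), Il1rn (0.83) and Alas1 (0.82). Both fibroblast chemokines had matrix genes nearby, Cxcl1 the collagens Col3a1 (0.85), Col1a2 (0.84) and Col1a1 (0.84) with Ckap4 (0.83) and Mt2 (0.83), and Cxcl5 Ccn4 (0.96), Col24a1 (0.96), Crabp2 (0.95), Capn6 (0.95) and Bdkrb1 (0.95). Over the 58 granuloma sums alone, these collagens were not among the 5 genes nearest to Cxcl1. Those were Ckap4 (0.86), Gstm5 (0.83), Fndc3b (0.82), Efemp2 (0.82) and B3galnt1 (0.81). Ppbp was most like Ccl24 (0.80), Dglucy (0.72), Dcstamp (0.72), which takes part in the fusion of macrophages, Fxyd2 (0.72) and Mt3 (0.72). Among the members themselves r was highest for Cxcl2 with Cxcl3 (0.84) and for Cxcl1 with Cxcl5 (0.69), and -0.22 for Cxcl5 with Cxcr2.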

How the data were processed

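Droplet-based 3' libraries were counted by the authors. The deposited raw UMI counts (21617 genes, 41191 cells) and the deposited table of cells, with the authors' classes and subclusters and the percent of mitochondrial UMIs, were used. Cell Ranger 3.0.0, Seurat 3.0 and mm10 are named without roles per the submitters' processing notes, and filters on cells were not found in these sources. Depth was 11207419 to 96066597 UMIs a library.

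Counts were summed per class or subcluster and library and scaled to CPM (Python 3.11.15, numpy 2.4.6, scipy 1.17.1). Log2 ratios had 0.5 counts added, with an interval from the conditional binomial, and shares exact (Clopper-Pearson) 95% intervals. A comparison needed 50 cells in both libraries and a counted gene 20 UMIs over both. Subclusters C9, BP and KC and cells named low quality were set aside. No doublet caller was run. The scripts were tested on simulated data. Each group had 1 library, so no test was run and no p-value computed. Alternatives included TMM factors (edgeR 4.0.16), thinning, other offsets and leaving out cells. The members, lists and markers were chosen with earlier results of these data known. Genes named beside the members were at most 4 a list by highest CPM, and the 5 of highest r with at least 1000 UMIs.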

Additional observations from a re-analysis of the deposited data

Results flagged for a closer look

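Pairs of ratios whose signs were opposite in 2 materials or at 2 times, each beyond its counting interval, were looked for among the members. With 1 library a group the difference between the members of each pair was not tested.

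For silk against sponge at 2 and then at 4 weeks (log2), the pairs in Mo-Mac cells were -1.10 and 0.25 for Cxcl2, 1.97 and -0.82 for Cxcl3, 0.95 and -3.98 for Cxcl5, and 1.29 and -1.19 for Ppbp. In neutrophils they were 0.96 and -0.93 for Cxcl3 and -0.32 and 0.84 for Cxcr2, the latter with 44 UMIs in silk at 4 weeks. Cxcl3 gave 1.24 and -0.90 in fibroblasts, or 0.11 and -0.29 without F4, and 2.04 and -4.55 in endothelial cells, where silk at 4 weeks had 1 UMI.

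For 4 against 2 weeks in sponge and then in silk, the pairs in Mo-Mac cells were -0.53 and 0.55 for Cxcl1, -0.94 and 0.41 for Cxcl2, 1.65 and -1.14 for Cxcl3, 2.06 and -2.86 for Cxcl5, and 2.26 and -0.23 for Ppbp. The silk value of Ppbp was 0.18 and 0.14 with thinning to 500 and 1000 UMIs and 0.047 without the 5% of cells with the most UMIs, so that the opposite signs were lost there, and the sponge value of Cxcl2 was 0.086 within C7. Cxcr2 in neutrophils gave -0.41 and 0.74, of which the second was 0.31 (-0.20 to 0.76) within N1, not beyond its counting interval. Cxcl3 in endothelial cells gave 0.99 and -5.60, and Cxcl2 in NK and T cells -1.30 and 0.45. Both sets of pairs come from the same 4 libraries, so they are 1 observation seen from 2 sides. The silk library at 4 weeks, with the fewest cells, enters each pair.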

How the results depend on the processing

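No paired analysis was possible because each group had 1 library. For 122 ratios of members, 1262 alternative values were computed, of which 912 stayed inside the counting interval and 21 changed sign; the cause was not tested. The alternatives without N3, without F4 and without cells whose barcode occurs in another library were chosen after seeing the data.

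The ratio of Cxcl2 in Mo-Mac cells against the control (log2) was 6.38, 5.44, 5.28 and 5.69 with 10 CPM added. Thinning to 500 UMIs gave 6.79, 5.91 and 5.72 in the first 3 granulomas, and thinning to 1000 UMIs 6.81, 5.89, 5.70 and 6.10. Without the 5% of cells with the most UMIs it was 6.84 and 5.82 in sponge and 6.13 in silk at 4 weeks. TMM factors gave 6.77 in sponge at 2 weeks, and in sponge at 4 weeks the mean over cells gave 5.87 and leaving out cells above 10% mitochondrial UMIs 5.86.

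Cxcl3 in Mo-Mac cells, silk against sponge at 2 weeks, was 1.94 with 10 CPM added, 1.91 with TMM factors, 1.63 and 1.79 with thinning to 500 and 1000 UMIs, 1.73 as a mean over cells and 1.88 without the deepest 5%. At 4 weeks it was -1.21 and -1.03 with thinning, -1.22 as a mean over cells, -0.94 without the deepest 5% and -0.91 without cells of high mitochondrial share. For 4 against 2 weeks in sponge the settings named for silk against sponge at 2 weeks gave, in that order, 1.62, 1.55, 1.47, 1.60, 1.54 and 1.62, and leaving out cells of high mitochondrial share 1.75. In silk thinning gave -1.37 and -1.22, the mean over cells -1.42 and leaving out the deepest cells -1.20.

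Cxcl1 in fibroblasts, silk against sponge at 2 weeks, was -0.92 with TMM factors, -0.91 both with 1000 UMIs and as a mean over cells, and -0.82 without the deepest 5%. At 4 weeks it was -0.051 with 500 UMIs and -0.36 without the deepest 5%. For 4 against 2 weeks in sponge it was -0.996 with TMM factors, -0.99 and -0.96 with thinning, -0.90 without the deepest 5% and without high mitochondrial share, and -0.97 without F4. In silk it was -0.23 with TMM factors, -0.22 with 1000 UMIs, -0.13 as a mean over cells and -0.44 without the deepest 5%.

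The share of Cxcl1 UMIs from fibroblasts was 54.5%, 52.8%, 39.5% and 47.4% with cells weighted equally, and 76.8% and 81.3% in sponge and 60.8% in silk at 4 weeks without the deepest 5%. That of Cxcr2 from neutrophils was 97.8%, 96.7%, 96.2% and 97.2% with cells weighted equally.

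The changes of sign listed here are those of ratios whose interval left out 0. Signs changed for silk against sponge at 2 weeks for Cxcr2 in Mo-Mac cells (0.81 with 500 UMIs and 0.29 as a mean over cells), Cxcr2 in fibroblasts (1.42 with 1000 UMIs and 0.31 without F4), Ppbp in endothelial cells (1.23 with 500 UMIs) and Cxcl3 in NK and T cells (-0.15 and -0.24 with thinning). At 4 weeks they changed for Cxcl2 in neutrophils (0.031 with 500 UMIs), Cxcl5 in fibroblasts (-0.74 with 500 UMIs, -0.19 as a mean over cells and -0.10 without the deepest 5%) and Cxcl5 in endothelial cells (1.17 with 500 UMIs). For 4 against 2 weeks they changed in silk for Ppbp in Mo-Mac cells (0.18 and 0.14 with thinning and 0.047 without the deepest 5%), Cxcl1 in endothelial cells (1.52 and 0.053 with thinning and 0.052 as a mean over cells) and Cxcl3 in NK and T cells (0.26 with 500 UMIs), and in sponge for Cxcr2 in fibroblasts (0.54 with 1000 UMIs) and Cxcl5 in myocytes (-1.27 with 500 UMIs).

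With no filter on UMIs, 54 of 58 counts of genes past 2-fold over all genes moved by over 1.5 times. Spearman in place of Pearson changed the 5 genes most like a member for 5 of 6 members. The depth of silk at 4 weeks, with 69 neutrophils, limits what its values can show.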
